A study of Mus musculus with 58 samples.

Results

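The SPOC mutant lines were followed from undifferentiated mouse embryonic stem cells (mESCs) to day 6 of culture in neural precursor cell (NPC) conditions. By sample title, 5 of the 58 libraries of the series belong to this comparison. They are the uninduced mESC libraries of clones C11, D9 and H1 (day 0) and the day 6 libraries of clones D9 and H1. All come from iXist-ChrX_Dom, a female 129S x Cast mESC line in which a TetOn promoter replaces the endogenous Xist promoter on the 129S (Dom) allele, and all carry the mutation of the Spen SPOC domain. The study describes these changes as point mutations that stop the domain from binding SMRT and NCoR. The day 0 cells grew in serum and LIF without doxycycline, on feeder fibroblasts that were removed by pre-plating. The day 6 cells grew on gelatin in N2B27 medium with doxycycline throughout. Medium, time and Xist induction therefore changed together and cannot be told apart here. The day 1 libraries of the same 3 clones, which had doxycycline in mESC medium, and the day 3 NPC libraries of D9 and H1 are given beside the results. Each library is 1 clone, and clone C11 has no NPC library. WT stands for iXist-ChrX_Dom without the Spen mutation, read in 2 libraries at day 6 of the same induction and given beside some results.

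Xist is the long non-coding RNA that coats 1 X chromosome of a female cell and silences its genes in cis. SPEN is an RNA-binding protein that is recruited to Xist, and its C-terminal SPOC domain binds the SMRT and NCoR corepressors, which carry the histone deacetylase HDAC3. SPEN is also a corepressor of RBPJ, the DNA-binding factor of the Notch pathway. When mESCs leave serum and LIF, they lose the naive pluripotency network, pass through a formative state and, in N2B27, take up a neural fate. Loss of 1 active X chromosome is known to ease this exit, since several X-linked genes restrain differentiation signals.

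The assay was ChrRNA-seq, sequencing of chromatin-associated RNA, which is rich in nascent transcripts. Values are CPM, the fragments counted over the whole span of a gene scaled to the same library total, so they are levels per library and not per gene length. Values for day 0 are listed in the order C11, D9 and H1, and values for day 6 in the order D9 and H1. Fold changes are log2 with their standard error (SE), and adjusted p-values are Benjamini-Hochberg values from edgeR's quasi-likelihood test across all genes tested, with a threshold of 0.05. The 5 libraries held 11.3 M to 16.6 M counted fragments, within the 2.29 M to 30.01 M of the series. No pair of replicates agreed within sampling noise. Of 22556 genes in the table, 16227 had enough counts to be tested, by a filter over all 58 libraries.

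Spen itself (chr4:141467889-141538597, mm10) was read at 264, 244 and 263 CPM at day 0 and at 523 and 526 CPM at day 6. Both day 6 values lay above all day 0 values, and the gene rose by 1.03 ± 0.35 (adjusted p = 0.0236). This call was lost when any 1 of the 5 libraries was left out. The counts cover the whole gene and do not show the point mutations, so they give no check of the genotype. Xist (chrX:103460372-103483233) was read at 34.1, 41.5 and 66.3 CPM at day 0 and 5535 and 4851 CPM at day 6, a rise of 6.78 ± 0.33 (adjusted p = 1.47e-16). The groups stood far apart, and the day 1 libraries were already 6.16 above day 0 on the log2 scale. The Dom allele gave 99.90% of the allelic Xist fragments of clone D9 at day 6 (95% Wilson interval 99.85 to 99.93, 25033 fragments) and 99.95% of those of H1 (99.91 to 99.97, 18891 fragments). The intervals cover counting error only.

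Between day 0 and day 6, 2804 genes rose (17.3% of those tested) and 2726 fell (16.8%). The CPM values of the 2 groups did not overlap for 65.3% of the genes tested. With 2 libraries at day 6, these counts lean on both of them. They were 1429 and 1448 without the day 6 library of D9, and 1693 and 1704 without that of H1. Fitted on the 5 libraries alone, 14621 genes were tested, of which 3508 rose and 3392 fell. The shares of 17.3% and 16.8% from the fit of all libraries are the background for the gene groups below. For these groups the number of calls left without each day 6 library is given as well. Where a fit with the clone as a block, over the 10 SPOC mutant libraries of all days or the 5 of both groups, changed a call, its value stands beside it. Except for Otx2 over 10 libraries, the calls gained this way were also gained in the same libraries without a block. These gains thus cannot be credited to pairing the clones.

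Naive pluripotency genes fell in part. Of the 13 on the list, 7 fell, none rose and 6 did not pass the test, with a median log2 fold change of -1.02 against -0.0013 over all genes tested, of which 16.8% fell. Klf4, a transcription factor of the naive network, was at 94.2, 85.4 and 50.3 CPM at day 0 and 13.98 and 21.5 CPM at day 6. Every day 6 value was below every day 0 value, and Klf4 fell by 2.11 ± 0.63 (adjusted p = 0.00938). Tbx3 went from 102, 111 and 50.9 CPM to 13.1 and 24.6 CPM and fell by 2.23 ± 0.58 (adjusted p = 0.00359). Tfcp2l1, a LIF-responsive factor, was at 290, 391 and 228 CPM and then at 95.3 and 153 CPM, also without overlap. It fell by 1.29 ± 0.44 (adjusted p = 0.0219). Zfp42, known as Rex1 and a marker of naive mESCs, was at 639, 577 and 466 CPM and then 220 and 287 CPM. Its day 6 levels were lower without overlap, and it fell by 1.15 ± 0.39 (adjusted p = 0.0231). Klf5 (-1.02), the germline and naive marker Dppa3 (-1.33) and the X-linked nuclear receptor Nr0b1 (-1.42) also fell.

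The other 6 naive genes did not pass the test. Esrrb, an orphan nuclear receptor of the naive network, was read at 454, 452 and 406 CPM at day 0 and 372 and 544 CPM at day 6. The groups overlapped, with a log2 fold change of 0.07 ± 0.35 (adjusted p = 0.901). Nr5a2, a nuclear receptor that can activate Pou5f1, had a log2 fold change of 0.05 (adjusted p = 0.928), and Klf2 of -0.36 (adjusted p = 0.577). Nanog was at 75.8, 66.8 and 42.6 CPM at day 0 and 31.3 and 35.7 CPM at day 6, lower in both day 6 libraries but without passing the test (-0.88 ± 0.37, adjusted p = 0.0656). With the clone as a block Nanog passed, at -0.78 over 10 libraries (adjusted p = 0.0130) and -0.69 over 5 (adjusted p = 0.0284). In WT cells at day 6 Nanog was read at 21.2 and 25.9 CPM. Without the D9 library 1 of the 7 naive calls was kept, and without the H1 library 3.

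Formative pluripotency genes were mostly higher at day 6, and core pluripotency genes were mixed. Of 9 core pluripotency genes tested, 4 rose and 2 fell, and of 10 formative genes 6 rose and none fell, with a median of 1.21, against the 17.3% of all genes that rose. Pou5f1, which encodes OCT4, was at 57.8, 54.6 and 43.4 CPM at day 0 and 76.4 and 64.3 CPM at day 6. Both day 6 libraries were above the mESCs, but the difference of 0.44 did not pass the test (adjusted p = 0.230). It passed with the clone as a block, at 0.49 over 10 libraries (adjusted p = 0.00364) and 0.51 over 5 (adjusted p = 0.0259). The RNA-binding protein gene Lin28a was at 15.1, 17.3 and 15.4 CPM and then 80.4 and 36.9 CPM, and rose by 1.88 ± 0.49 (adjusted p = 0.00364). The zinc-finger factor Sall4 (1.00), Utf1 (1.70) and Dppa4 (1.05) rose with it, while Dppa5a (-1.58) and the Nodal co-receptor Tdgf1 (-1.10) fell. Sox2 lies within Sox2ot on the same strand and was listed at 0 in every library, so it has no usable value.

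Fgf5, the classical marker of the primed epiblast, was close to absent in mESCs at 0.446, 0.124 and 1.60 CPM. At day 6 it was at 24.6 and 13.95 CPM, a rise of 4.76 ± 1.40 (adjusted p = 0.00847). Grhl2, a factor that opens epithelial enhancers in the formative state, was at 24.5, 13.1 and 31.4 CPM and then at 167 and 92.3 CPM. The groups were well apart, and Grhl2 rose by 2.49 ± 0.42 (adjusted p = 2.92e-05). Lef1, a mediator of Wnt signalling, rose by 2.15, and the zinc-finger factor Zic2 by 1.44. Otx2 had a log2 fold change of 0.96 and did not pass the test (adjusted p = 0.0953), but passed with the clone as a block over 10 libraries (1.10, adjusted p = 0.0487) and over 5 (1.09, adjusted p = 0.0206). The calls kept without D9 and without H1 were 0 and 4 of 6 for the core list and 2 and 5 of 6 for the formative list.

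DNA methylation genes rose or did not pass, beside 17.3% of all genes tested that rose and 16.8% that fell. Of 9 genes of this list, which shares Dnmt3a and Dnmt3b with the formative list, 4 rose, none fell and 5 did not pass. The de novo methyltransferase gene Dnmt3b was at 28.8, 25.4 and 47.2 CPM at day 0 and 311 and 182 CPM at day 6. Its lowest day 6 value was well above its highest day 0 value, and it rose by 2.87 ± 0.50 (adjusted p = 4.80e-05). Dnmt3a, the other de novo enzyme, rose by 0.97, and the maintenance genes Dnmt1 and Uhrf1 rose by 0.51 and 0.63. Dnmt3l, a cofactor without enzyme activity, had a log2 fold change of 1.25 (adjusted p = 0.0510) and passed with the clone as a block over 10 libraries (1.23, adjusted p = 0.0260) and over 5 (1.25, adjusted p = 0.0208). Of these 4 calls, 1 was kept without D9 and 3 without H1.

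Most neural progenitor genes did not pass the test. Of 26 neural progenitor genes listed, 19 could be tested, 3 rose, none fell and 16 did not pass, with a median of 0.33. The share that rose was close to that of all genes. Pax6, a transcription factor of the early neural plate, was at 1.34, 1.18 and 1.39 CPM at day 0 and at 7.03 and 4.87 CPM at day 6. The groups did not overlap, and Pax6 rose by 2.19 ± 0.64 (adjusted p = 0.00793). The homeobox gene Meis2 went from 16.4, 12.9 and 22.9 CPM to 84.3 and 94.98 CPM, higher in both clones, and rose by 2.36 ± 0.43 (adjusted p = 8.18e-05). Rfx4, a factor of the dorsal neural tube, rose by 1.32, a call lost with the clone as a block in the 5 libraries alone (0.99, adjusted p = 0.0612). Nes, which encodes the progenitor filament protein nestin, was at 18.8, 14.2 and 16.1 CPM at day 0 and 23.96 and 8.12 CPM at day 6. The D9 value was the highest and the H1 value the lowest of all 5, and the difference was -0.02 ± 0.96 (adjusted p = 0.990). In the WT libraries at day 6 Nes was read at 89.6 and 64.3 CPM, above all 5 SPOC mutant libraries. Vim, which encodes vimentin, had a log2 fold change of 0.03 (adjusted p = 0.973), and the glial fatty acid binding protein gene Fabp7 of 0.69 (adjusted p = 0.738).

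Several defining markers of neural progenitors were too low to test. The Notch effector Hes5 reached at most 0.505 CPM in any of the 58 libraries and Zic1 0.309 CPM. Sox1 overlaps Gm5607 on the same strand and was listed at 0 throughout, so its level is unknown. Hes5 and Zic1 were that low in every line, WT included, so these markers do not tell the identity of the day 6 cells. The NPC label is used here for the protocol only, and the libraries are called day 6 cultures in what follows. In bulk RNA, fewer cells of a type and less RNA per cell cannot be told apart. Of the 3 neural calls, 1 was kept without D9 and 2 without H1.

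**Figure D1:**
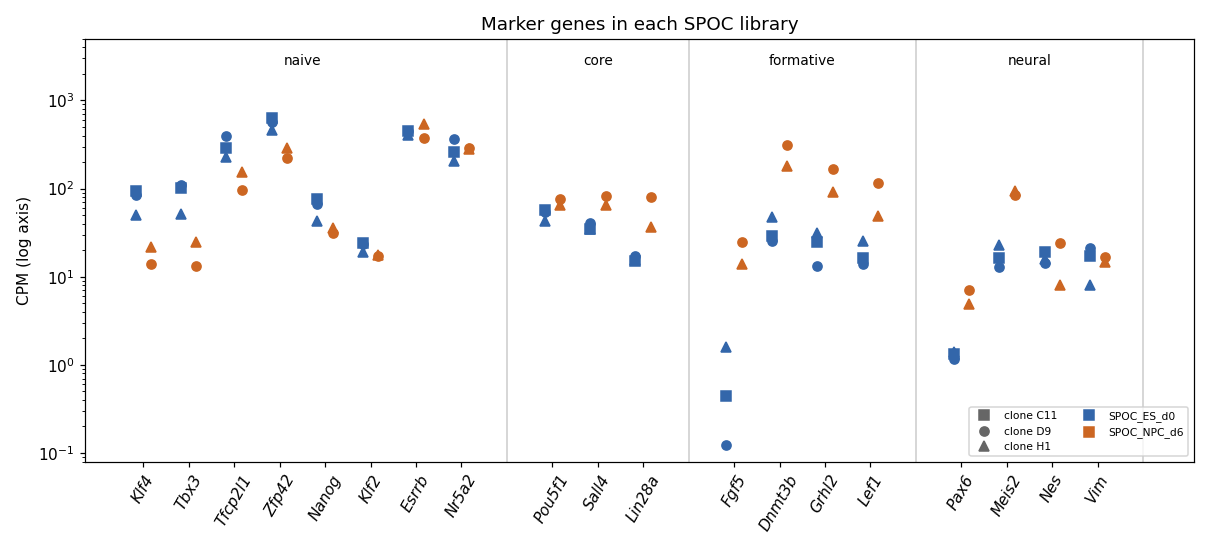
Level of marker genes in each of the 5 SPOC mutant libraries (CPM, log axis), grouped as naive, core, formative and neural genes, with point shape for the clone and colour for day 0 or day 6. Klf4, Tbx3 and Zfp42 lie lower at day 6, Fgf5, Dnmt3b and Pax6 lie higher, and Esrrb, Nes and Vim overlap between the days.

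Neuron genes gave few calls, while all 3 glial genes tested were called. Of 12 neuron genes tested 1 rose, 1 fell and 10 did not pass, smaller shares than the 17.3% and 16.8% over all genes. Tubb3, which encodes a neuronal tubulin, was at 3.18, 3.65 and 1.04 CPM and then 9.08 and 6.50 CPM and rose by 1.56, while the neuronal RNA-binding protein gene Elavl4 fell by 0.72. Dcx, a marker of migrating neurons, had a log2 fold change of 0.54 (adjusted p = 0.702). Of 3 glial genes tested 1 rose and 2 fell. Slc1a3, the glutamate transporter of radial glia, was at 64.5, 71.2 and 80.04 CPM at day 0 and 199 and 211 CPM at day 6. Both clones were higher, by 1.51 ± 0.24 (adjusted p = 1.11e-05). Sox10 (-2.73) was among those that fell. Without D9 and without H1 the calls kept were 0 and 2 of 2 for neurons and 1 and 1 of 3 for glia.

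Lists of other germ layers were short, and over all genes tested 17.3% rose and 16.8% fell. The share of mesoderm genes that fell was above this background, though on 5 genes. Of 5 mesoderm genes tested, the T-box factor Eomes (-1.05) and the VEGF receptor gene Kdr (-2.83) fell, with 2 calls kept without D9 and 0 without H1. Eomes did not pass with the clone as a block in the 5 libraries alone (-0.95, adjusted p = 0.0765). None of 11 endoderm genes and none of 6 trophoblast genes tested passed, with a median of 0.07 over the endoderm genes. Of 5 neural crest and surface ectoderm genes, Tfap2a rose. It was at 0.127, 0 and 0.139 CPM at day 0 and 3.84 and 3.06 CPM at day 6, a rise of 5.19 ± 0.65 (adjusted p = 3.89e-07) that was kept without either day 6 library but rests on few fragments at day 0. Fibroblast genes, which would mark left-over feeder cells, were low in both groups. Their summed level was 4.97 to 15.4 CPM at day 0 and 2.77 to 7.52 CPM at day 6, and of 9 tested only Pdgfrb fell (-2.85).

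**Figure D2:**
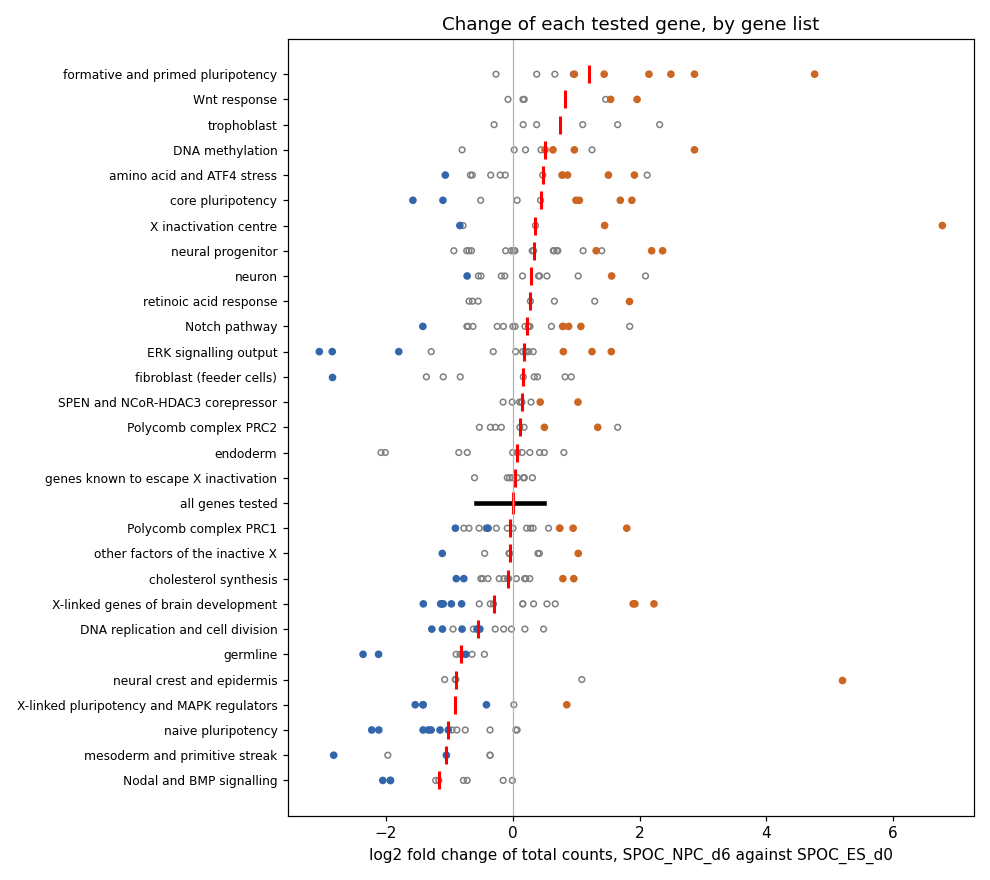
Log2 fold change from day 0 to day 6 of every tested gene on each gene list (x axis), 1 row per list. Orange points rose, blue points fell and open grey points did not pass the test, the red bar is the list median and the black bar the quartile range of all genes tested, and the naive list shows 7 blue points where the formative list shows 6 orange ones.

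Because SPEN also acts on Notch targets, the Notch list was read by role. Of 18 genes tested 3 rose, 1 fell and 14 did not pass, shares no higher than those over all genes. Among the ligands, Jag1 was at 49.6, 61.9 and 56.95 CPM at day 0 and 24.9 and 17.01 CPM at day 6. The groups were well apart and Jag1 fell by 1.42 ± 0.20 (adjusted p = 2.85e-06), while Jag2 rose by 0.80. Among the receptors Notch3 rose by 0.88. The DNA-binding factor Rbpj was at 568, 607 and 532 CPM and then at 1164 and 1231 CPM, higher in both clones, and rose by 1.07 (adjusted p = 0.00923). The direct target Hes1 had a log2 fold change of -0.72 and did not pass (adjusted p = 0.187). Of the 4 calls, 2 were kept without D9 and 3 without H1. Of the 8 genes of SPEN and its corepressor partners, Spen and the NCoR subunit gene Tbl1xr1 (0.43) rose, and neither call was kept without D9 or without H1. With the clone as a block in the 5 libraries alone Tbl1xr1 did not pass (0.43, adjusted p = 0.0625). Ncor1, the gene of the NCoR scaffold, had a log2 fold change of 0.14 (adjusted p = 0.567), and Hdac3 of 0.11 (adjusted p = 0.629).

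Of 14 tested targets of the ERK pathway 3 rose and 3 fell, shares near the 17.3% and 16.8% over all genes. The immediate early gene Fos was at 46.5, 34.3 and 26.3 CPM at day 0 and 4.66 and 3.92 CPM at day 6, several times lower in both clones, and fell by 3.05 ± 0.60 (adjusted p = 2.02e-04). Dusp5, an ERK phosphatase, was at 11.1, 10.95 and 10.4 CPM and then 1.55 and 1.43 CPM, and fell by 2.85 (adjusted p = 2.88e-05). The immediate early factor Egr1 fell by 1.80. The inhibitor Spred2 (1.25), the ETS factor Etv4 (1.55) and the phosphatase gene Dusp4 (0.80) rose. Without D9 and without H1, 3 and 3 of these 6 calls were kept.

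Lists of genes read out by other signals were short, and over all genes tested 17.3% rose and 16.8% fell. The shares of Nodal and BMP genes that fell and of Wnt targets that rose were above this background. Of 9 genes of the Nodal and BMP list none rose and 3 fell, the Nodal antagonists Lefty1 (-2.05) and Lefty2 (-1.93) and the BMP target Id3 (-1.93). Of 6 Wnt targets Lgr5 (1.96) and the cyclin gene Ccnd1 (1.54) rose. Of 7 genes of the retinoic acid list the receptor gene Rarg rose by 1.84. Without D9 and without H1 the calls kept were 1 and 1 of 3, 0 and 1 of 2, and 0 and 1 of 1.

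The Polycomb complexes PRC1 and PRC2 act beside SPEN in Xist-mediated silencing. Of 18 PRC1 genes 3 rose and 2 fell, and of 9 PRC2 genes 2 rose and none fell, shares that together are near or below the 17.3% and 16.8% over all genes. Kdm2b, which brings the PCGF1 form of PRC1 to CpG islands, was at 61.5, 55.5 and 65.5 CPM at day 0 and 204 and 219 CPM at day 6. Both clones were above all mESC libraries by a wide margin, and Kdm2b rose by 1.80 ± 0.24 (adjusted p = 1.17e-06). Cbx7 (0.95), a chromobox subunit of canonical PRC1, and Pcgf6 (0.74) rose too. Yaf2, the RYBP homologue of variant PRC1, fell by 0.91 (adjusted p = 9.69e-05), and Pcgf3, which with Pcgf5 starts Polycomb recruitment by Xist, fell by 0.40. In PRC2 the core subunit Eed (0.50) and the accessory subunit Phf19 (1.34) rose. The counts kept without D9 and without H1 were 4 and 4 of 5 for PRC1 and 1 and 1 of 2 for PRC2.

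Among 7 other factors of X inactivation, Cdyl rose by 1.03 and Hnrnpk, which links Xist to PCGF3 and PCGF5, fell by 1.11, with 2 and 1 of these 2 calls kept without D9 and without H1. Over all genes tested 17.3% rose and 16.8% fell. Smchd1, needed late in X inactivation, had a log2 fold change of 0.40 and did not pass (adjusted p = 0.118), but passed with the clone as a block over 10 libraries (0.38, adjusted p = 0.00600). Within the X inactivation centre, Jpx (1.45) rose beside Xist and the ubiquitin ligase gene Rlim (-0.84) fell, while the antisense gene Tsix had a log2 fold change of -0.79 and an adjusted p of 0.0502, just outside the threshold. Tsix passed with the clone as a block over 10 libraries (-0.81, adjusted p = 7.59e-04) and over 5 (-0.79, adjusted p = 0.00376). Of the 3 calls of this list, 1 was kept without D9 at day 6 and 2 without H1. Rlim was lost without either of these libraries and without H1 at day 0, and Jpx without D9 at day 6 and without C11 or D9 at day 0. Rlim did not pass with the clone as a block over the 10 SPOC mutant libraries (-0.78, adjusted p = 0.0575).

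Cell cycle and germline genes fell or did not pass, beside 16.8% of all genes tested that fell and 17.3% that rose. Of 12 cell cycle genes 5 fell and none rose. Mki67, which encodes the proliferation antigen Ki-67, was at 939, 794 and 779 CPM and then 373 and 318 CPM. It fell by 1.28 ± 0.33 (adjusted p = 0.00284), with the replication licensing genes Mcm4 (-1.11), Mcm3 (-0.80) and Mcm6 (-0.52) and the mitotic cyclin gene Ccnb1 (-0.57). Of 8 germline genes 3 fell and none rose. Dazl, a germ cell RNA-binding protein gene, was at 48.5, 39.2 and 39.8 CPM at day 0 and 8.67 and 7.84 CPM at day 6, and fell by 2.36 (adjusted p = 1.27e-05), as did Asz1 (-2.12) and Ddx4 (-0.74). Without D9 and without H1, 4 and 3 of the 5 cycle calls and 2 and 2 of the 3 germline calls were kept.

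Of the metabolic stress lists, that of ATF4 leaned to rises and that of sterol genes gave no single direction. Of 13 targets of the amino acid response factor ATF4, 4 rose and 1 fell, with a median of 0.47. The share that rose was above the 17.3% of all genes tested, and the share that fell was below the 16.8%. The kinase-like gene Trib3 (1.92), Cth (1.51), the serine synthesis gene Phgdh (0.86) and Sesn2 (0.78) rose, and asparagine synthetase, Asns (-1.06), fell. Of 15 sterol genes 2 rose, among them Sqle (0.96), and 2 fell, Idi1 (-0.77) and Insig1 (-0.89). Both sterol shares were below the 17.3% that rose and 16.8% that fell over all genes tested. The calls kept without D9 and without H1 were 2 and 4 of 5 and 1 and 2 of 4.

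Beyond the lists, the gene with the largest rise was Enpp2, and the genes named here were chosen by size of change. Enpp2 (chr15:54838678-54920146), which encodes the secreted enzyme autotaxin, was at 0.127, 0.124 and 0.209 CPM at day 0 and 61.3 and 68.9 CPM at day 6. It rose by 8.67 ± 1.56 (adjusted p = 7.10e-05), from few fragments at day 0, and its mean was 0.278 CPM at day 1 and 34.9 CPM at day 3. The neurexin ligand gene Nxph1 went from 1.15, 1.36 and 0.348 CPM to 81.9 and 93.4 CPM, a rise of 6.50. Rapgef4, which encodes the cAMP-activated exchange factor EPAC2, was at 4.27, 5.14 and 7.72 CPM and then 172 and 230 CPM, and rose by 5.14 ± 0.46 (adjusted p = 9.20e-10). Rapgef4 was already at a mean of 87.9 CPM in the day 1 mESCs and at 133 CPM at day 3. Grm6, a glutamate receptor gene, rose by 5.51, Fam196b by 4.68 and the GABA-B receptor auxiliary subunit gene Kctd16 by 4.63.

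Of the genes that fell most, A2m, which encodes the protease inhibitor alpha-2-macroglobulin, was at 140, 176 and 103 CPM at day 0 and 4.17 and 7.26 CPM at day 6. It fell by 4.62 ± 0.80 (adjusted p = 4.41e-05). Txnip, a glucose-responsive arrestin gene, was at 122, 90.7 and 199 CPM and then 5.15 and 6.50 CPM, also far apart, and fell by 4.56. Rgcc (-5.38), Gm2016 (-5.37), Gm5091 (-5.06), the myelin gene Mobp (-4.66), 6330410L21Rik (-4.37) and 6430710C18Rik (-4.35) made up the rest of the 8 lower genes named by size.

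At day 3 the counts were close to those at day 6. Against day 0, 2468 genes rose at day 3 (15.2%) and 2372 fell (14.6%), with log2 fold changes of 7.78 for Enpp2, 5.33 for Nxph1, 4.47 for Fgf5, -5.41 for A2m and -4.46 for Txnip. These counts share the day 0 libraries with those at day 6. They were 1210 and 1128 without the day 3 library of D9, and 1444 and 1307 without that of H1. Between day 3 and day 6 the test called no gene higher (0%) and no gene lower (0%), while 101 genes were higher and 256 lower at an unadjusted p under 0.05 and DESeq2 called 2 lower and none higher. With 2 libraries on each side, this does not show that levels stood still.

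X-linked genes were lower in total expression. Of 620 X-linked genes tested 41 rose and 229 fell, with a median of -0.61, while the medians of the autosomes ran from -0.21 to 0.16. Of 15606 autosomal genes 2762 rose and 2497 fell. Lower totals were found on both sides of Xist. The 380 genes before Xist had a median of -0.53 (35.3% fell), and the 238 beyond it one of -0.72 (39.9% fell). At day 1 these medians were -0.29 and -0.43, and at day 3 -0.31 and -0.67.

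X-linked genes of pluripotency and brain give examples. Of 6 genes tied to pluripotency or to the dose of the X, 1 rose and 4 fell. Klhl13, an adaptor of a ubiquitin ligase, was at 1367, 1132 and 1711 CPM at day 0 and 513 and 539 CPM at day 6, and fell by 1.42 (adjusted p = 4.62e-05). The MAPK phosphatase gene Dusp9 (-1.54), Nr0b1 (-1.42) and the ETS factor Elk1 (-0.42) fell, and the kinase gene Araf rose by 0.85. Elk1 did not pass with the clone as a block in the 5 libraries alone (-0.41, adjusted p = 0.0810). Of 17 genes with known roles in brain, 3 rose and 6 fell. Over all X-linked genes tested, 35.3% before Xist and 39.9% beyond it fell, and 8.2% and 3.8% rose. The share of brain genes that fell was thus near that of the X. The tetraspanin gene Tspan7 was at 106, 120 and 173 CPM and then 64.04 and 60.1 CPM, and fell by 1.10 (adjusted p = 8.27e-04). The protocadherin gene Pcdh19 (-1.12) fell as well. Against this, the neural adhesion gene L1cam (1.93), the membrane glycoprotein gene Gpm6b (2.23) and Il1rapl1 (1.90) rose. None of 8 listed genes known to escape X inactivation passed in either direction. Without D9 and without H1, 3 and 2 of the 5 pluripotency calls and 6 and 6 of the 9 brain calls were kept.

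Silencing in cis was read from the allelic ratio, the Dom share of the allele-specific fragments of a gene, where 0.5 is equal output of both alleles and 0 is complete silencing of the Xist-bearing chromosome. The study kept a set of X-linked genes with enough allelic fragments, all of them before Xist on the chromosome, which are called the ratio genes here. Beyond Xist the Dom allele gave 0.709 to 0.863% of the fragments over 328 genes in all 5 libraries, the mESCs included, so no ratio can be read there. The study states that iXist-ChrX_Dom is not informative over the whole X. It names a recombination event in this line among the reasons for genes left out. A median of 114 to 218.5 allelic fragments per gene stood behind each ratio, and the lowest single value rested on 2 fragments. In autosomal genes the median ratio was 0.505 to 0.517 in the 5 libraries.

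As sequence context, the promoters of a pair of strongly silenced genes and of a pair that kept their ratio are shown. They come from RefSeq (GRCm38.p6), cover 250 bases before to 50 after the annotated start and are written 5′ to 3′ on the strand of the gene, with each CG dinucleotide in capitals. Msn lies at chrX:96095795-96096094 (plus strand, 21 CG), Phka1 at chrX:102644197-102644496 (minus strand, 25 CG), Ddx3x at chrX:13280772-13281071 (plus strand, 25 CG) and Idh3g at chrX:73786848-73787147 (minus strand, 27 CG). The ratios of these genes follow below.
Msn: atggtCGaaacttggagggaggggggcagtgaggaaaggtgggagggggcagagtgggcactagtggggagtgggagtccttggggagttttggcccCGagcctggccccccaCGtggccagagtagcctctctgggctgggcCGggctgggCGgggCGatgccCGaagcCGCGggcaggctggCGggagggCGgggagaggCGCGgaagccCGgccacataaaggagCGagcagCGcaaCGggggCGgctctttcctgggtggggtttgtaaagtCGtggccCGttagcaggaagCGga
Phka1: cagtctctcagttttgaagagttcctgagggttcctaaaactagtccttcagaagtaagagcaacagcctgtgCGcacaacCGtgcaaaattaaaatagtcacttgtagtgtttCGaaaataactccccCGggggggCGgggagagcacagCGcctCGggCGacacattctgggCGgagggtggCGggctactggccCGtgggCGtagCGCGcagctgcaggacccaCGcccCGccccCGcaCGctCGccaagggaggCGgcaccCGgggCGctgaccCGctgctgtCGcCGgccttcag
Ddx3x: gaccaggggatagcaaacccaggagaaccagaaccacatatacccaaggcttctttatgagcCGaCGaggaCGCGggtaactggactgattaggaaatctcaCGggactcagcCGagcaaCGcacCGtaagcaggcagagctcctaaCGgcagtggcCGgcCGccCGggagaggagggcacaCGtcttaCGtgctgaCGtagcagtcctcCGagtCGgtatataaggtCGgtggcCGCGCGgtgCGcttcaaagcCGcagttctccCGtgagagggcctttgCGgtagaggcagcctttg
Idh3g: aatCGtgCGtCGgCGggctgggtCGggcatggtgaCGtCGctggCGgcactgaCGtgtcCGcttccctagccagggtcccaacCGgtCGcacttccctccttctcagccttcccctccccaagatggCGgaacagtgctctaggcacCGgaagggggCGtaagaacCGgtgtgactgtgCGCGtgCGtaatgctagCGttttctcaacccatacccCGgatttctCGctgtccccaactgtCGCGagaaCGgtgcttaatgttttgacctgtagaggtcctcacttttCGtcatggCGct
All 4 windows held more CG than the median of 7 over all windows and of 18 over those of the ratio genes. This does not hold for every gene with a strong loss, since the windows of Prrg1, Gm6938 and Cd99l2, described further on, held 4, 5 and 9 CG. A CG was found in 94.6% of 32851 promoter windows of this length and in 98.0% of those of the 196 ratio genes with an entry. Genes that kept under 50% of their ratio held a median of 12.5 CG (62 genes, quartiles 8 to 20.75), and genes that kept 75% or more held 19.5 (80 genes, quartiles 12 to 22.25). Across the 196 genes the Spearman correlation of the CG number with the share of the ratio kept was 0.179, as a description over genes that share the same 5 libraries.

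The median ratio per library was below equality at day 6 but far from 0. It was 0.519, 0.500 and 0.519 at day 0 (mean 0.513 ± 0.011, SD, n = 3) and 0.331 and 0.338 at day 6 (0.335 ± 0.0050, n = 2). Both day 6 values lay below all day 0 values, a difference of -0.178, with p = 0.2 in a two-sided exact permutation test, which is the smallest p that 2 against 3 libraries allow. Within clone D9 the difference was -0.169 and within H1 -0.181. The mean was 0.442 at day 1 and 0.408 at day 3, so it lay lower at each later day.

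Gene by gene, 156 ratios fell from day 0 to day 6 (63.4%) and 1 rose (0.407%) in edgeR's quasi-likelihood test on the Dom and Cast fragments, adjusted over the ratio genes. The ratios of the 2 groups did not overlap for 77.6% of the genes. Of the 156 genes, 155 were lower in both clones than in the mESCs of the same clone. Over all ratio genes 209 were lower in both clones, 4 higher in both and 29 went opposite ways. As a share of its day 0 mean, the day 6 ratio had a median of 64.9% (quartiles 41.0 to 85.1). Under 25% was kept by 32 genes, of which 31 fell, 25 to 50% by 55 (52 fell), 50 to 75% by 64 (45 fell) and 75% or more by 95 (28 fell).

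Msn (7.33 Mb from Xist), which encodes the membrane linker moesin, had the largest change of ratio among genes with 50 fragments or more in each library. Its ratio was 0.539, 0.510 and 0.550 at day 0 and 0.0625 and 0.0343 at day 6, from 545, 512 and 411 (day 0) and 320 and 233 (day 6) allelic fragments. The groups were far apart, and the log2 odds of the Dom allele fell by 4.42 ± 0.31 (adjusted p = 1.06e-19). The mean was 0.320 at day 1 and 0.191 at day 3, so it lay lower at each later day. Zc3h12b, of a family of RNA-degrading enzymes, went from 0.532, 0.466 and 0.553 to 0.0741 and 0.0116 and fell by 4.57 on the log2 odds scale. Phka1, a phosphorylase kinase subunit gene, went from 0.524, 0.448 and 0.500 to 0.0810 and 0.0488 and fell by 3.79. Both lay near Xist, at 7.64 and 0.881 Mb.

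Strong loss was also found far from Xist. Cd99l2, a cell adhesion gene 32.00 Mb away, went from 0.500, 0.512 and 0.569 to 0.120 and 0.0957, a fall of 3.20 in log2 odds. Aff2, a gene of the AF4 family 33.8 Mb away, went from 0.579, 0.513 and 0.562 to 0.133 and 0.0860 and fell by 3.33. Prrg1, at 24.9 Mb, went from 0.558, 0.504 and 0.602 to 0.154 and 0.105 and fell by 3.07. Gm6938 started with a Dom bias, at 0.875, 0.783 and 0.832, and ended at 0.361 and 0.387, a fall of 3.05.

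At the other end, 6 genes with at least 200 allelic fragments in each library changed least. Rbm3, a cold-induced RNA-binding protein gene, was at 0.519, 0.547 and 0.538 at day 0 and 0.525 and 0.545 at day 6. The ribosomal protein gene Rpl10 was at 0.628, 0.622 and 0.672 and then 0.609 and 0.658, and the metabolic gene Idh3g at 0.504, 0.487 and 0.513 and then 0.490 and 0.498. In each of these the groups overlapped, and none passed the test. The RNA helicase gene Ddx3x, a known escapee, was at 0.493, 0.484 and 0.519 and then 0.496 and 0.487. Utp14a, a ribosome assembly gene, was at 0.618, 0.582 and 0.642 and then 0.634 and 0.589, and the amino acid transporter gene Slc7a3 at 0.510, 0.477 and 0.438 and then 0.446 and 0.486. The totals of Utp14a (1.19) and Slc7a3 (1.62) rose.

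Dkc1, a gene of the telomerase and pseudouridine synthase complex, was the only gene whose ratio rose. It was at 0.351, 0.320 and 0.356 at day 0 and 0.415 and 0.412 at day 6, higher in both clones, by 0.43 ± 0.17 in log2 odds (adjusted p = 0.0237). Dkc1 started below 0.5, and the call was lost without the D9 library of either day or without the H1 library of day 6 (adjusted p = 0.0842, 0.112 and 0.0749). Known escapees gave no call. Kdm6a, a histone demethylase gene, was at 0.576, 0.543 and 0.550 and then 0.514 and 0.530 (adjusted p = 0.144, and 0.0340 with the clone as a block over 10 libraries), and the translation factor gene Eif2s3x at 0.485, 0.412 and 0.457 and then 0.424 and 0.422. Of the X-linked pluripotency genes the ratio fell for Nr0b1 (-1.69), Klhl13 (-0.95) and Elk1 (-1.15), and did not pass for Araf (-0.20, adjusted p = 0.403), whose total rose. Among the brain genes Tspan7 (-1.15) and the scaffold gene Cask (-1.20) fell.

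Read against distance, the day 6 ratio was lowest among the genes nearest Xist. Within 20 Mb of Xist 47 of 56 genes fell and the median day 6 ratio was 0.223, and at 20 to 40 Mb 38 of 64 fell with a median of 0.335. At 40 to 60 Mb 33 of 40 fell and the median was 0.253, so the order was not even. At 60 to 80 Mb 8 of 17 fell (0.369), a bin of few genes, and at 80 to 100 Mb 30 of 69 (0.420). Clone D9 gave 0.198, 0.338, 0.237, 0.365 and 0.426 over the 5 bins and H1 0.244, 0.337, 0.256, 0.402 and 0.439. Across the ratio genes the share kept had a Spearman correlation of 0.294 with distance, 0.357 with the day 0 level per kb and 0.274 with the number of allelic fragments. These are descriptions over genes of the same libraries, and level, fragment number and position were not separated.

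**Figure D3:**
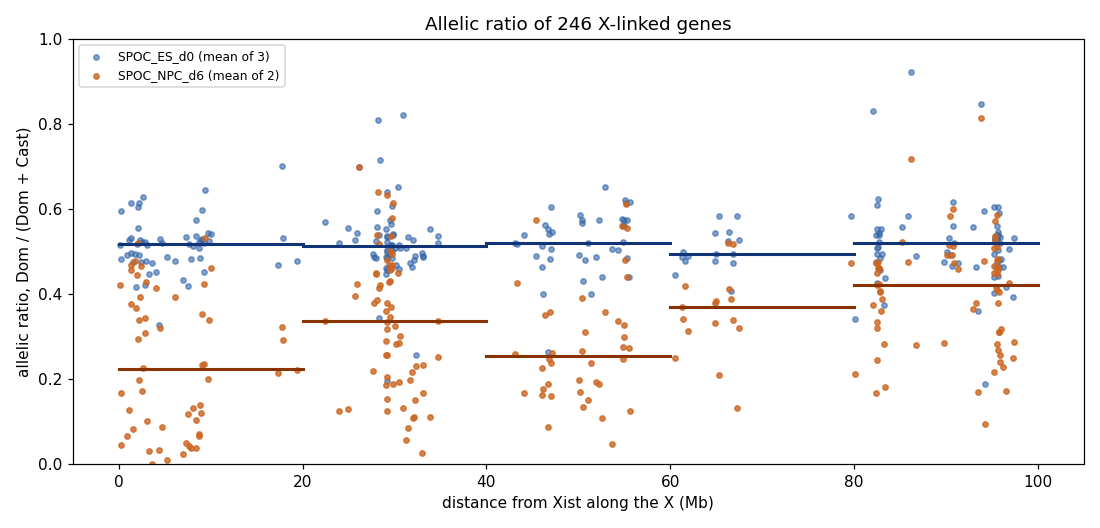
Allelic ratio (y axis, Dom share of allelic fragments) of the ratio genes against distance from Xist in Mb (x axis), as the mean of the 3 day 0 libraries in blue and of the 2 day 6 libraries in orange, with bars for the median of each 20 Mb bin. The blue bars lie near 0.5 throughout, and the orange bars run from 0.223 in the bin nearest Xist to 0.420 in the farthest.

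A lower ratio can come from less Dom output or more Cast output, so each allele was tested by itself. The Dom level fell for 130 genes (52.8%) and rose for 15 (6.1%), with a median log2 change of -1.11. The Cast level rose for 44 (17.9%) and fell for 26 (10.6%), with a median of 0.10. With library sizes in place of TMM scaling the Cast level rose for 39 and fell for 36, with a median of 0.011, so the excess of Cast rises depends on the scaling. Of the 156 genes whose ratio fell, 109 had a lower Dom level by test. The Dom level fell and the Cast level rose in 6 genes, both fell in 26, and in 98 the Dom level fell with no call for Cast. Msn was among those 6, with -3.78 for Dom and 0.64 for Cast. Pdzd4, whose ratio was 0.548, 0.559 and 0.586 at day 0 and 0.531 and 0.539 at day 6, rose on both alleles, by 2.33 for Dom and 2.51 for Cast. The Cast counts lean on single libraries, at 12 higher and 6 lower without the D9 day 6 library and 21 and 7 without that of H1, and Dom gave 8 higher without D9. Without C11 or D9 at day 0 the Cast level rose for 25 and 29, and without H1 at day 0 it fell for 17. For the ratio genes in sum over alleles, 76 fell and 28 rose, with a median of -0.31.

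**Figure D4:**
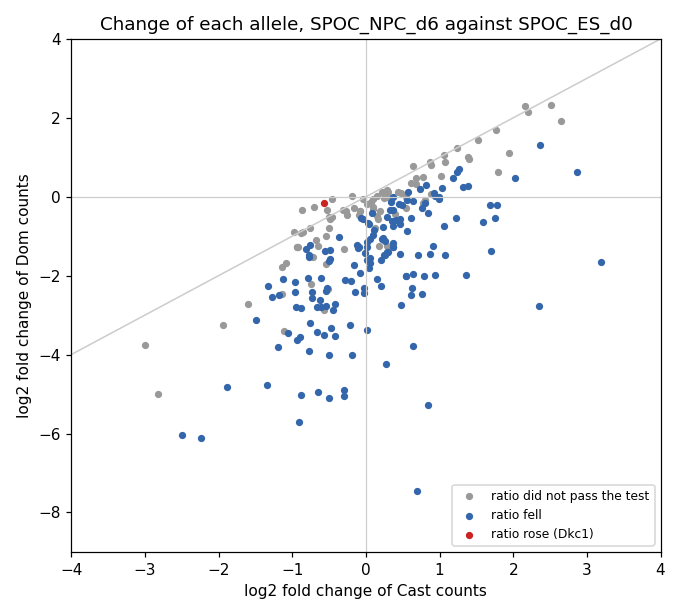
Log2 fold change from day 0 to day 6 of the Dom level (y axis) against that of the Cast level (x axis) for the ratio genes. Genes whose ratio fell are blue, genes that did not pass are grey and Dkc1 is red, and the blue points lie below the line of equal change, with medians over all genes of -1.11 for Dom and 0.10 for Cast.

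From day 3 to day 6, 41 ratios fell (16.7%) and none rose (0%), although total expression gave no call over the same days. By an unadjusted p under 0.05, 77 were lower and none higher. Among genes named by size, Zc3h12b (-2.41), Mtmr1 (-1.50), Gm6938 (-1.46), the deacetylase gene Hdac8 (-1.42), Prrg1 (-1.37), Ddx26b (-1.25), Zfp185 (-1.14) and Dock11 (-1.03) fell in log2 odds. Over 5 alternatives, which left out 1 library or used limma on the ratios, only Hdac8 and Ddx26b always kept the call. Prrg1 and Zfp185 kept it in 4, Zc3h12b in 3, Mtmr1 in 2, and Dock11 and Gm6938 in 1. Leaving out any 1 of the 4 libraries of D9 and H1 gave 13 to 26 genes.

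These changes were set beside a line with an intact SPOC domain. PCGF35_ctrl carries FKBP12F36V tags on PCGF3 and PCGF5 and had no dTAG-13, and it has 2 mESC and 2 day 6 libraries. Its engineering and its SPOC domain differ from the SPOC mutant together, so this comparison alone cannot tell their parts apart. The untreated degron line that also carries the SPOC mutation (clones F10 and F6) had day 6 median ratios of 0.328 and 0.402. A difference from that line was not tested. The change from day 0 to day 6 was more positive in SPOC mutants for 333 genes (2.05%) and more negative for 204 (1.26%). Where only the groups compared were fitted, the counts were 975 and 1058, so the share that was more positive went from 62.0% to 48.0%. Zfp42 fell by 1.15 in SPOC mutants, against -3.54 in PCGF35_ctrl, a difference of 2.39. Over the naive list the medians were -1.02 and -2.63, and Zfp42 was the only 1 of the 13 genes whose difference passed. Nes had a log2 fold change of -0.02 in SPOC mutants and 3.35 in PCGF35_ctrl, a difference that did not pass (adjusted p = 0.177). The endoderm factors Gata6 (-6.69), Sox17 (-5.61) and Gata4 (-4.58) had a more negative change in SPOC mutants, and over the endoderm list, where 4 of 11 differences passed, the medians were 0.07 and 3.59. In PCGF35_ctrl Gata6 was at 0.556 and 1.79 CPM at day 0 and 12.1 and 47.2 CPM at day 6, and in SPOC mutants at 1.55 and 0.764 CPM at day 6. What this endoderm signal contributes to the other differences was not tested. Kdm2b (1.28), Phf19 (1.90) and Rapgef4 (3.54) rose more in SPOC mutants. Left out 1 at a time, every library of the 2 lines moved at least 1 of these counts by over 1.5 times, over ranges of 3 to 316 and 2 to 132. The counts were 4 and 2 without PCGF35_ctrl mESC replicate 1, 21 and 25, and 3 and 6, without its day 6 replicates 1 and 2, and 5 and 3, and 14 and 4, without the day 6 libraries of SPOC clones D9 and H1.

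In allelic ratio the contrast with PCGF35_ctrl was broad. Day 6 library medians were 0.065 and 0.083 in PCGF35_ctrl and 0.083 and 0.089 in WT, against 0.331 and 0.338 in SPOC mutants. The loss of log2 odds was smaller in SPOC mutants for 198 genes (80.5%) and larger for none (0%), which was 203 and 0 at an unadjusted p under 0.05 and 1 lower by limma on the ratios. F8, the coagulation factor VIII gene, ended at a mean of 0.0189 in PCGF35_ctrl and at 0.688 and 0.594 in SPOC mutants. Slc7a3 ended at 0.0343 against 0.446 and 0.486. Msn ended at 0.0225 against 0.0625 and 0.0343.

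The same mutation with an Xist that also lacks its Polycomb-recruiting region (DelPID_SPOC, clones A8 and G3, of which the study describes G3 as tetraploid, and whose engineering label names only the Xist deletion while title and study name both changes) gave the opposite contrast. Its day 6 medians were 0.496 and 0.508. The log2 odds fell further in SPOC mutants for 110 genes (44.7%) and less for none (0%), which was 124 and 0 at an unadjusted p under 0.05. Msn ended at 0.514 in DelPID_SPOC and Zc3h12b at 0.560. In total expression, where left-out libraries moved the counts from 0 to 121 and from 0 to 154, 79 genes had a more positive change in SPOC mutants (0.487%) and 131 a more negative one (0.807%). Without the day 6 library of SPOC clone H1 both counts were 0, and without that of D9 they were 15 and 43. In edgeR fitted on the groups compared alone both were 0 as well, with 1408 and 1389 genes at an unadjusted p under 0.05, and DESeq2 called 186 and 251. Over the naive list the median was -0.52 in DelPID_SPOC and -1.02 in SPOC mutants, and none of the 13 differences passed, with 1 at an unadjusted p under 0.05.

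**Figure D5:**
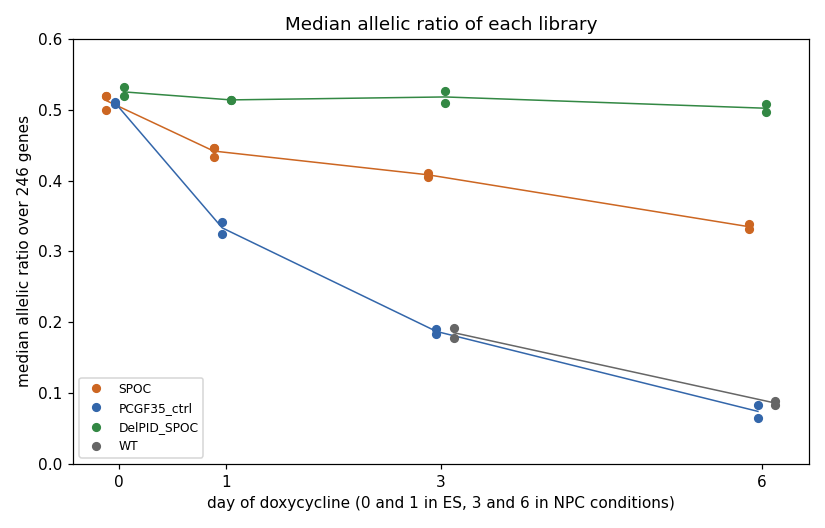
Median allelic ratio of the ratio genes in each library (y axis) against the day of Xist induction (x axis), with lines joining the group means. SPOC mutants run from a mean of 0.513 at day 0 to 0.335 at day 6, between DelPID_SPOC near 0.5 and the WT and PCGF35_ctrl libraries under 0.1.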

How the data were processed

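ChrRNA-seq libraries were made with the Illumina TruSeq stranded total RNA kit and sequenced on a NextSeq500, as the study and its labels state. The authors removed rRNA reads with Bowtie2 2.3.2, aligned the rest uniquely with STAR 2.4.2a to mm10 with polymorphic sites masked, and split fragments by allele with SNPsplit. They deposited fragment counts per gene and allele, counted with strand over whole gene spans by featureCounts (version not given in the sources used here), and for 246 X-linked genes the allelic ratio as a fraction. Their filter asked for at least 10 allelic fragments in more than 80% of WT samples and an uninduced ratio between 0.1 and 0.9. The ratio recomputed from the counts matched the deposited fraction. Genes sharing a strand with an overlapping gene can lose reads in such counting.

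Total counts of all 58 libraries were fitted with edgeR 4.0.16 (R 4.3.3), with TMM scaling, filterByExpr and 1 mean per group. Changes were tested by quasi-likelihood with Benjamini-Hochberg adjustment over 16227 genes at 0.05. Ratios were tested in the same way on Dom and Cast counts with a term per library. The fits recovered fold changes set in simulated data. The simulation used the spread estimated by the same model and independent libraries, so it does not test for effects of the clone. Alternatives used DESeq2 1.42.0, limma 3.58.1, other filters, libraries and baselines, and the clone as a block. Summaries and plots used pandas 2.3.3, scipy 1.17.1 and matplotlib 3.10.9. The same clone is the same cell line at each day, so clone numbers pair libraries. The D9 minus H1 deviations at day 0 and day 6 correlated at 0.0540 for expression and 0.0645 for the ratios. Whether libraries come from separate cultures is not stated beyond the clones. The p-values rest on the spread within groups, estimated over all 58 libraries, including groups with repeats of a single line. They do not measure the spread between the SPOC mutant clones alone.

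The gene lists and members were chosen with earlier results of these data known. Named genes are members of those lists, Spen, and per comparison up to 8 genes a direction with the largest change among those called, at 5 CPM or more (ratios: 50 fragments or more) and without overlap. For the ratios the genes that rose and the 6 with the smallest change at 200 fragments or more were added. Pdzd4 was named for the ratio after its values were seen. Some genes that these rules name are not reported here, and the counts include them. Lines and treatments that the report does not name are not analysed further here. They entered the shared estimate of spread, the scaling and the filter that set which genes were tested and adjusted over.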

Additional observations from a re-analysis of the deposited data

Results flagged for a closer look

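The change from day 0 to day 6 differed between SPOC mutants and PCGF35_ctrl, by a test of the difference itself, for 333 genes with a more positive and 204 with a more negative change in SPOC mutants, or 975 and 1058 where only the groups compared were fitted. Among those named by size, the difference on the log2 scale was 7.13 for Gm1995, 3.74 for Calcoco2, 3.54 for Rapgef4, 3.38 for Nap1l2, 3.33 for Slc5a1, 3.32 for 4930519F16Rik, 3.29 for Alk and 3.22 for Enox1. It was -6.69 for the endoderm factor Gata6, -4.98 for the mesoderm factor T, -4.98 for the basement membrane collagen gene Col4a2, -4.66 for Flt1, -4.58 for Gata4, -4.48 for St6galnac5, -4.19 for Irf2 and -4.07 for Loxl2. Of the listed genes it was 2.39 for Zfp42, 1.77 for Dppa4 and 1.84 for Tdgf1, and -5.61 for the endoderm factor Sox17. Among Polycomb genes it was 1.28 for Kdm2b, 1.29 for Cbx7, 0.89 for Eed, 1.90 for Phf19 and -1.22 for Yaf2. It was -2.72 for Dusp5 and 0.90 for 1810030O07Rik. A difference need not be a change in SPOC mutants. Gm1995 fell there by 2.58, and it was at 0 CPM in both PCGF35_ctrl day 6 libraries. Calcoco2 and Alk did not pass in SPOC mutants, while Rapgef4, Nap1l2, Slc5a1, 4930519F16Rik and Enox1 rose. Calcoco2 was at 61.1 and 10.4 CPM in PCGF35_ctrl mESCs. Of the genes named by size with a negative difference, only Loxl2 (-2.74) fell by test in SPOC mutants. Leaving out 1 library gave 211 and 119 without PCGF35_ctrl mESC replicate 2, 4 and 2 without its replicate 1, 21 and 25 or 3 and 6 without its day 6 replicate 1 or 2. It gave 90 and 59, 102 and 90 or 316 and 132 without the day 0 library of SPOC clone C11, D9 or H1, and 5 and 3 or 14 and 4 without the day 6 library of D9 or H1.

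Against DelPID_SPOC the change was more positive in SPOC mutants for 79 genes and more negative for 131, by the same kind of test. In the groups compared alone edgeR called none (0 and 0, with 1408 and 1389 at an unadjusted p under 0.05) and DESeq2, on all libraries, 186 and 251, so the values that follow are not called in that fit. The difference was 2.65 for Slc44a5, 2.52 for Susd4, 2.27 for Slc35f3, 2.23 for Gfod1, 2.04 for Nwd1, 2.04 for Sult5a1, 1.97 for Pcbd2, 1.77 for Cabp1 and 1.48 for the Notch modifier gene Mfng. It was -5.43 for Luzp4, -3.64 for AU022751, -3.33 for Anxa8, -2.84 for Arhgef38, -2.68 for Tspan6, -2.58 for B430319G15Rik, -2.37 for 2810454H06Rik and -2.16 for Gspt2. Luzp4, AU022751, Tspan6 and Gspt2 are X-linked. Of the genes named by size, only Slc35f3 (0.15) and Cabp1 (-0.02) did not pass from day 0 to day 6 in SPOC mutants themselves. Leaving out 1 library gave 121 and 154 or 10 and 32 without DelPID_SPOC mESC replicate 1 or 2, and 51 and 81 or 3 and 20 without its day 6 replicate 1 or 2. It gave 27 and 81, 46 and 83 or 111 and 113 without the day 0 library of C11, D9 or H1, and 15 and 43 or 0 and 0 without the day 6 library of D9 or H1.

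In allelic ratio the loss of the Dom share was smaller in SPOC mutants than in PCGF35_ctrl for 198 genes. The difference in log2 odds was 5.11 for F8, 4.58 for Slc7a3, 4.06 for Chic1, 3.85 for Irak1, 3.83 for Pdzd4, 3.66 for Pola1, 3.45 for Zdhhc9 and 3.08 for Renbp. Against DelPID_SPOC the loss was larger in SPOC mutants for 110 genes. The difference was -4.72 for Zc3h12b, -4.22 for Msn, -3.29 for Aff2, -3.23 for Mtmr1, -2.86 for Prrg1, -2.75 for Fhl1 and -2.67 for Dlg3.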

How the results depend on the processing

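The library that mattered most was the day 6 library of clone D9. Of 103 named expression calls from day 0 to day 6, 50 were lost without it, 35 without the day 6 library of H1, and 11, 12 and 18 without the day 0 libraries of C11, D9 and H1. With the day 1 libraries as baseline 21 were lost. DESeq2 lost only Dusp4. Of 13 named allelic calls from day 0 to day 6, only Dkc1 was lost without a library or with limma on log2 odds, and only Nr0b1 with the day 1 baseline. The cause was not tested in any of these. With 2 libraries at day 6, small differences in lowly read genes were not detectable, and ratios resting on few fragments have wide counting error.

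With the clone as a replicate block in the 5 libraries 2856 genes rose and 2825 fell, with 4666 calls shared with those of the full design, and in the 10 SPOC mutant libraries 3963 and 3795, with 5307 shared. In that block Nes had 0.0151 and Utp14a 0.0373 in log2 odds, both opposite in sign to the reported value and not called. Of the named calls, Rfx4, Tbl1xr1, Elk1 and Eomes were lost in the first block and Rlim in the other, and in the 10-library allelic block 1 ratio rose and 160 fell, with no named allelic call lost. Both blocks gained calls for Nanog, Pou5f1, Otx2, Dnmt3l and Tsix, and the 10-library block also for Smchd1 and, in log2 odds, Kdm6a. Without a block, the 5 libraries alone gained Nanog, Pou5f1, Otx2, Dnmt3l, Tsix and Smchd1. The 10 SPOC mutant libraries alone gained Nanog, Pou5f1, Dnmt3l, Tsix, Smchd1, Hes1 and, in log2 odds, Kdm6a. Most of these gains thus came with the set of libraries fitted, with or without the block. Over 13 alternatives each, Nanog passed in 8, Dnmt3l and Tsix in 7, Otx2 and Pou5f1 in 4, Smchd1 in 3 and Hes1 in 1.

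Uncalled genes near 0 changed sign. With the day 1 baseline Esrrb had -0.15, Nr5a2 -0.0943 and Vim -0.0194, and in log2 odds Rbm3 0.00515, Utp14a 0.0480, Idh3g 0.0403, Rpl10 0.13 and Slc7a3 0.31. With DESeq2's test Nr5a2 had -0.00504 and Vim -0.0191, and with its size factors alone -0.00509 and -0.0200. Rbm3 had 0.000111 with limma on the ratios and 0.000534 on log2 odds, where no gene rose (0). DESeq2's test on comparisons other than day 6 against day 0 was chosen after seeing the data. It called 2 genes lower from day 3 to day 6, 467 and 423 against PCGF35_ctrl and 186 and 251 against DelPID_SPOC. In the groups compared alone these last counts were 975 and 1058, and 0 and 0. With at least 200 fragments, which leaves 89 genes, 61 ratios fell. Limma on the ratios called 1 gene lower against PCGF35_ctrl.

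Leaving out 1 library gave 1429 to 2385 higher and 1448 to 2457 lower genes at day 6, and 1210 to 2078 and 1128 to 2007 at day 3. From day 3 to day 6 it gave 0 to 2 lower genes and 13 to 26 lower ratios. Against PCGF35_ctrl the ranges were 3 to 316 and 2 to 132, and against DelPID_SPOC 0 to 121 and 0 to 154. The ratio rose for 0 to 1 genes, the Dom level for 8 to 13, and the Cast level rose for 12 to 32 and fell for 6 to 25. Log2 changes ran from -0.27 to 0.28 for Esrrb, -0.13 to 0.32 for Nr5a2, -1.04 to 0.51 for Nes, -0.27 to 0.34 for Vim, -0.77 to 1.12 for Dcx and -4.15 to 1.67 for Fabp7. Log2 odds ran from -0.0562 to 0.0577 for Rbm3, -0.15 to 0.13 for Utp14a, -0.19 to 0.11 for Rpl10, -0.0839 to 0.0161 for Ddx3x and -0.17 to 0.0585 for Slc7a3.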
